A study of Caenorhabditis elegans with 2 samples.

Results

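The regions described here are candidate regions from ChIP-seq of CCCH-3 on the Caenorhabditis elegans X chromosome whose summits lie far from gene starts. A region was taken when it lay on X in the list made from the pooled reads and its summit was more than 2000 bp from the start of every locus annotated as protein-coding, lincRNA, pseudogene, miRNA, rRNA, snoRNA, snRNA or tRNA. Of 30000 candidates, 2907 met this rule, and the signal value played no part in it. The authors label this list as peaks and background, and 10 of the 2907 had a pooled q-value at or under 0.05. Most of the 2907 are therefore candidates only and cannot be read as sites bound by CCCH-3. They are called the X-far regions, and they are set beside the 4075 X candidates nearer to a gene start and the 7733 autosomal candidates that are equally far from one. The nearest X-far summits lay 2001 bp from a start, at pooled ranks 1222, 18496 and 20778. The summits just outside the rule lay 1998, 1998 and 2000 bp away, at ranks 3323, 14716 and 2820.

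The chromatin came from whole young adults of strain OP628, harvested at 70 hours, with males and females pooled. The animals carry the integrated fosmid transgene wgIs628, which adds a TY1, EGFP and 3xFLAG tag to ccch-3 and brings unc-119(+) as its marker, in an unc-119 (tm4063) background. Animals had been starved as L1 larvae after bleaching to synchronise them, and sonicated chromatin of 200 to 800 bp was precipitated with an antibody against GFP. There was 1 group with 2 biological replicates, so no comparison between groups of worms could be made. Untagged worms were not analysed here, the tagged copy is an added transgene, and whole animals mix all tissues and both sexes. Each of 4 deposited peak lists was made against the same control alignment: 30000 candidates for each replicate, 30000 for the pooled reads, and 218 peaks that passed a test of rank agreement between replicates. These 218, called the reproducible peaks, were exactly the pooled candidates of rank 1 to 218, so the name says no more of a region than that its pooled rank is among them. No region of replicate 1 had a q-value at or under 0.05, against 202 of replicate 2, and the read depth is unknown. The replicate 1 list also held 16 mitochondrial regions, against 0 in that of replicate 2.

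In C. elegans, the dosage compensation complex, a condensin-like machine, binds both X chromosomes of hermaphrodites and lowers their transcription to the level of the single male X. It loads at recruitment elements on X through SDC-2 and then spreads, and many of these elements hold a 12-letter motif enriched on X with GCGCAGGG at its core. CCCH-3 belongs to the CCCH zinc finger family, whose members bind RNA in many known cases. The map positions of the known recruitment elements were not used here, so the letters of the core were searched in their place. A match is a description of the sequence and not evidence that a recruitment element lies there.

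The strongest X-far regions held the core close to their summits. Of the 6 X-far regions in the highest 100 of the pooled list, 5 had GCGCAGGG on either strand within 200 bp of the summit, and these 5 regions held 7 matches. The matches with 11 bases on each side are shown because they are the sequence the leading regions share. Each is written 5′ to 3′ on the strand that reads GCGCAGGG, which is in capitals, and all coordinates are on WBcel235, whose sequence is that of ce11.
mom-1 intron, chrX:6296537-6296566, plus strand: atttacatttgGCGCAGGGggtcaccatag
mom-1 intron, chrX:6296565-6296594, plus strand: agataggtatcGCGCAGGGaagatttaccg
F22H10.2 side, chrX:16682161-16682190, minus strand: aagaaaacatcGCGCAGGGaacatcaaatt
Y41G9A.17 intron, chrX:2997112-2997141, minus strand: ttaaatttatcGCGCAGGGaggaagtagcc
pks-1 coding exon, chrX:5429579-5429608, plus strand: cattaaatttaGCGCAGGGaggacgccgtt
gtr-1 side, chrX:806663-806692, plus strand: gtgcgattatcGCGCAGGGgtgtttgttgc
gtr-1 side, chrX:806739-806768, plus strand: taaaccgatacGCGCAGGGaaaaaaaaata

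These matches lay from 9 to 68 bp from the summits. The letter before the core was C in 5 of the 7 and the letter after it was A in 5, so that both 9-letter extensions, CGCGCAGGG and GCGCAGGGA, occurred 5 times. At the 25 far core matches on X that no candidate summit approached within 200 bp, C came before the core in 8 and A after it in 4. At the 6 far matches at candidate summits that were not reproducible, C came before the core in 1 and A after it in 5. The A was therefore not particular to the leading regions. Regions of 400 bp cannot place a contact to the base, so the distances give only the scale.

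The highest X-far region is printed over 151 bases because it held a pair of core matches, as the gtr-1 region did. The second highest is printed beside it because it was the exception among the leading 6 and held no exact core. The first is the plus strand of chrX:6296515-6296665, with both cores in capitals, and the second is the plus strand of chrX:13700787-13700937, without a capital letter.
mom-1 intron: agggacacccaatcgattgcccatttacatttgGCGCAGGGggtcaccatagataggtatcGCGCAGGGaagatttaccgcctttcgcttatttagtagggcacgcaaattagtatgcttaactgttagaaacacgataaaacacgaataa
K02D3.1 side: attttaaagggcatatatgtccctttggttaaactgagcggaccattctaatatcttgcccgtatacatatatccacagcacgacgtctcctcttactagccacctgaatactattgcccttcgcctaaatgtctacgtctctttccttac
The K02D3.1 region had 1 site that differs from the core by a single letter, 46 bp from its summit on the minus strand. That site is written here from chrX:13700893-13700922 with its 8 letters in capitals, and its change is C4A, counted from 1 at the 5′ end of the core, core letter first.
K02D3.1 site: tagacatttagGCGAAGGGcaatagtattc

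All 6 of the leading regions ranked in the highest 115 of both replicate lists. The region in an intron of mom-1 (WBGene00003394), which encodes a Porcupine-type acyltransferase of Wnt signalling, spanned chrX:6296390-6296789 and ranked 9 in the pooled list. Its signal value was 102 in replicate 1, where it ranked 26, and 128 in replicate 2, where it ranked 6, and the authors' value over pooled reads was 225. The nearest listed start was that of cest-16, 3352 bp away. The signal value is the authors' own score for a region against the control, each list has its own scale, and values are therefore read by rank within a list.

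The region near K02D3.1 (chrX:13700662-13701061) ranked 19, with a signal value of 112 in replicate 1 and 78.8 in replicate 2 and ranks of 20 and 69. It was intergenic, and its summit lay 6045 bp upstream of K02D3.1, the nearest start. The region beside F22H10.2 (chrX:16681936-16682335) ranked 27. It had a signal value of 64.0 in replicate 1 and 110 in replicate 2, at ranks 99 and 16. In replicate 2 it was therefore among the highest X-far regions, and in replicate 1 it was the lowest of these 6. The region in an intron of Y41G9A.17 (chrX:2996859-2997258) ranked 40, with 67.8 in replicate 1 and 96.5 in replicate 2, at ranks 78 and 34.

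The region in a coding exon of pks-1 (WBGene00016558) ranked 68 and lay deep in the gene body. PKS-1 is a polyketide synthase, and the summit lay 15735 bp from the start of its gene and 15195 bp from the nearest listed start. Its signal values were 71.1 in replicate 1 and 71.0 in replicate 2, at ranks 65 and 100, over chrX:5429345-5429744. A second candidate over the same core match, with its summit 153 bp from it, ranked 483. These 2 regions overlap and share a site, so they are not separate examples. The intergenic region nearest to gtr-1 (chrX:806487-806886) ranked 73, with 74.1 in replicate 1 and 67.8 in replicate 2, at ranks 57 and 115.

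The remaining 2 reproducible X-far regions were weaker and held no core, also with 1 mismatch allowed. The intergenic region at chrX:6253778-6254177, 2800 bp from the start of the lincRNA gene linc-103 and 9670 bp from that of W05H9.4, the nearest protein-coding gene, ranked 171, with signal values of 51.3 in replicate 1 and 49.0 in replicate 2. The intergenic region nearest to nhr-71, a gene of the nuclear hormone receptor family, ranked 206 (chrX:13745064-13745463), with 46.3 and 49.3 in replicates 1 and 2. Its summit was 2051 bp from the nearest start, close to the limit of the rule. Their ranks in the replicates were 210 and 309 in replicate 1 and 379 and 368 in replicate 2.

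**Figure D1:**
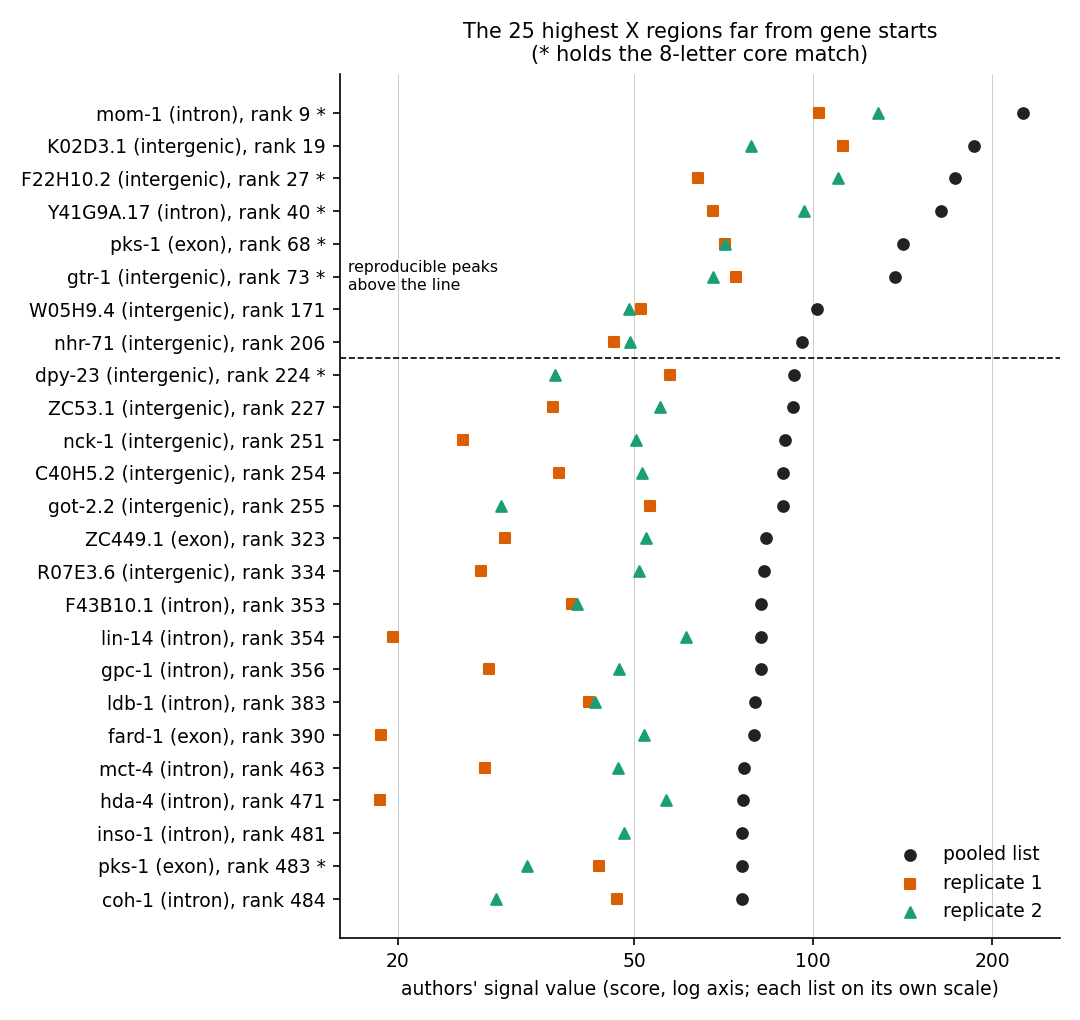
Signal values (authors' score, log axis) of the 25 X-far regions with the highest pooled signal, in the pooled list, replicate 1 and replicate 2. Each row is a region named by its host gene or, if intergenic, by the protein-coding gene with the nearest start, an asterisk marks a core match, and each list has its own scale. The 8 rows above the dashed line are reproducible peaks, and the replicate values lie closer together there than in many rows below it. An example below it is lin-14, with 19.6 in replicate 1 and 61.1 in replicate 2. The reproducible peaks are the pooled ranks 1 to 218, and the pooled list was made from the reads of both replicates. This closeness is therefore not separate from the choice by pooled rank.

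Below the reproducible peaks, many of the highest regions ranked high in only 1 replicate. The choice by pooled signal, over the same reads as the replicate lists, bears on this pattern, so it is given as description only. Among the 25 highest X-far regions, 24 had a region in both replicates, but only 13 were in the highest 3000 of both. In replicate 1, 16 of the 25 were in the highest 3000, against 22 in replicate 2. The region nearest to dpy-23, the mu subunit gene of a clathrin adaptor, ranked 224 with a core match 2 bp from its summit. It had a signal value of 57.5 in replicate 1 and 36.8 in replicate 2, at ranks 143 and 1874. The intron region of lin-14, which times larval cell fates, ranked 159 in replicate 2 and 18870 in replicate 1. The intron region of hda-4, a class II histone deacetylase gene, ranked 204 in replicate 2 and 21522 in replicate 1. That of coh-1, a cohesin subunit gene, ranked 6461 in replicate 2 and 296 in replicate 1. The intron region of inso-1 had no region in replicate 1.

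The other named regions in this set fell between these cases. The intergenic regions nearest to ZC53.1 and C40H5.2 ranked 227 and 254 and were in the highest 1171 of both replicates. The intron regions of F43B10.1 and of ldb-1, a LIM domain-binding cofactor gene, ranked 353 and 383 and were in the highest 1157 of both. The regions of nck-1, a signalling adaptor gene, ZC449.1, R07E3.6, gpc-1, which encodes a G protein gamma subunit, fard-1, a fatty acyl-CoA reductase gene, and mct-4 were in the highest 476 of replicate 2 and beyond rank 3000 in replicate 1. That of got-2.2, a transaminase gene, ranked 187 in replicate 1 and 5851 in replicate 2. In all, 10 of the 25 summits were in introns, 4 in exons and 11 between genes, and 0 of the 25 held a repeated 31-mer.

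As a whole the X-far regions were ordinary candidates with few at the top of the list. Only 8 of 2907 were reproducible peaks (0.275%, 95% Wilson interval 0.140 to 0.542%), against 0.727% of all 30000 candidates. The share was 1.20% (0.911 to 1.59%) of X candidates near gene starts and 0.103% (0.0524 to 0.204%) of autosomal far candidates. At a pooled q-value of at most 0.05, 10 X-far regions passed, against 0.763% of all candidates. The interval of the X-far share lay wholly below that of X candidates near starts and overlapped that of far autosomal regions. Regions along a chromosome are not replicates, so these intervals cover only the counting of regions and no test between the classes was made.

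The highest 3000 of the pooled list held 245 X-far regions, which is 8.43% of them (7.47 to 9.49%). The share was 10% of all candidates by construction, 11.8% of X candidates near starts and 8.48% of far autosomal ones. The median pooled rank was 14700, against 14439 near starts on X and 15249 for far autosomal regions. Reproducible peaks occurred at each distance. Summits over 2000 and up to 3000 bp away numbered 1026 with 4 reproducible peaks, those up to 5000 bp 1068 with 2, those up to 10000 bp 671 with 1, and the 142 beyond had 1. The median distance was 3600 bp and the largest 26310 bp, at pooled rank 17031.

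Replicate agreement was near the level of all candidates when any overlap counted and below it at high rank. A region of each replicate overlapped 1223 X-far regions by at least 1 bp, which is 42.1% (40.3 to 43.9%), against 41.0% of all candidates. It was 43.4% for X candidates near starts and 39.5% for far autosomal ones. Both overlapping regions were in the highest 3000 of their lists for 25 X-far regions, or 0.860% (0.583 to 1.27%), against 1.97% of all candidates. This share was 3.19% (2.69 to 3.78%) near starts on X and 1.06% (0.855 to 1.31%) in far autosomal regions. The pooled list was made from the same reads as the replicate lists, so the pooled and replicate values are not independent of each other.

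Spearman's rho of the signal value between the replicates was 0.0833 over the 1223 matched X-far regions. It was 0.158 over 1770 matched X candidates near starts, 0.0842 over 3051 far autosomal ones and 0.134 over 12308 of all. These correlations are across regions that share libraries and control, some neighbouring candidates match the same replicate region, and no p is attached to them. In matched X-far regions the replicate summits lay a median of 105 bp apart, and in the 8 reproducible ones 17 bp apart.

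**Figure D2:**
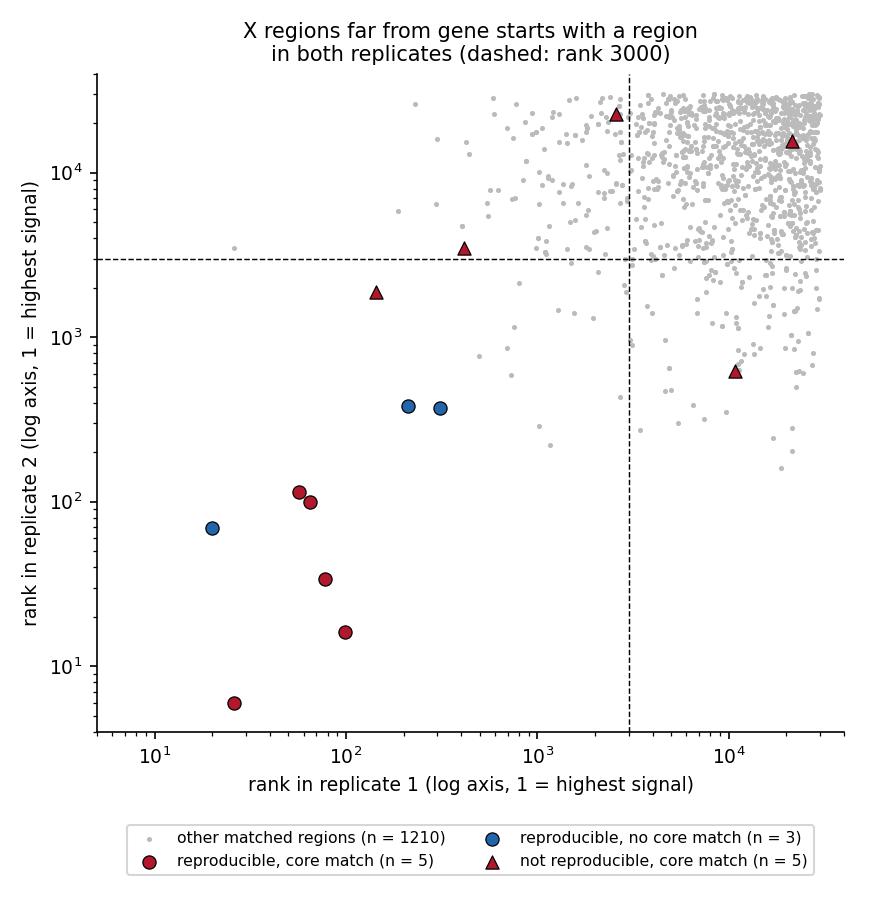
Rank in replicate 1 against rank in replicate 2 (log axes, rank 1 highest) for the 1223 X-far regions with a region in both replicates, with dashed lines at rank 3000. The 8 reproducible regions lie at the lower left, most of the other matched regions lie beyond rank 3000 in at least 1 replicate, and 5 core matches are not reproducible. The grey point at rank 26 in replicate 1 is a shoulder of the mom-1 region, of pooled rank 3103, that overlaps the same replicate 1 region.

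The gene settings of the summits were close in share to the sequence available. The bases of X that are far from every listed start amount to 7.65 Mb, or 43.2% of the chromosome. Introns held 1055 X-far summits, or 36.3% (34.6 to 38.1%), against 34.3% of far X bases. Intergenic sequence held 1186, or 40.8% (39.02 to 42.6%), against 40.2% of those bases. Exons held 606, or 20.8%, against 22.8%, and noncoding genes and pseudogenes 60. Per Mb of far sequence there were 402 X-far summits in introns, 386 between genes and 348 in exons. Over all settings the density was 380 per Mb on X, against 260 per Mb in far autosomal sequence. This was not particular to far sequence. Of all X bases, 15.2% lay within 200 bp of a candidate summit, against 10.8% of all autosomal bases. Of far autosomal bases, 42.9% were intronic and 31.2% intergenic.

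Signal rank differed little between settings. The highest 3000 held 8.63% of intron regions, 8.18% of intergenic regions and 8.58% of exon regions, and the median pooled ranks were 15204, 13976 and 15362.5. Both replicates had a region at 39.1% (36.2 to 42.0%) of the intron regions, 44.3% (41.5 to 47.1%) of the intergenic regions and 42.4% (38.5 to 46.4%) of the exon regions. Of the 25 regions in the highest 3000 of both replicates, 9 were in introns, 13 between genes and 3 in exons. The 8 reproducible regions comprised 2 in introns, 5 between genes and 1 in an exon.

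**Figure D3:**
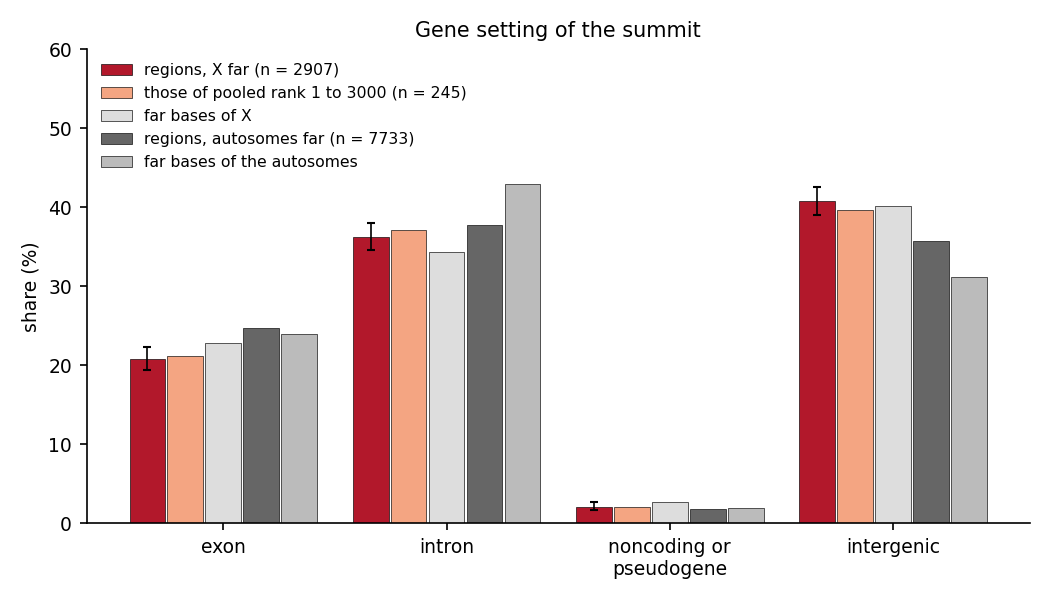
Share of summits by gene setting (percent) for the 2907 X-far regions with 95% Wilson intervals, for the 245 of them in the highest 3000, for far bases of X, and for far autosomal regions and bases. On X the shares of regions stay near the shares of bases, with 36.3% of X-far summits and 34.3% of far X bases in introns.

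Along X, the density of X-far regions was lowest at the ends. The chromosome was cut into 10 bins of equal length, numbered from its left end. Per Mb of far sequence the density was 302 in bin 1, 337 in bin 2, 362 in bin 3 and 393 in bin 4. It was 429, 435, 455 and 457 in bins 5 to 8, then 318 and 335 in bins 9 and 10. The central 50% of X, from 25 to 75% of its length, held 54.1% (52.3 to 55.9%) of X-far regions and 48.6% of far X bases. X candidates near starts had a like profile, with 295 per Mb of near sequence in bin 1, 469.6 in bin 6 and 360 in bin 10. The GC content of far sequence ran from 34.6 to 35.7% over the bins.

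The leading regions were few in each bin. Bins 5, 6 and 7 were among the densest and held 0 of the 8 reproducible X-far regions and 0 of the 12 with a core match. Bin 4 held 3 reproducible regions and 4 with a core match, bin 8 held 2 and 1, and bin 10 held 1 and 3. The 25 regions in the highest 3000 of both replicates numbered 1, 3, 1, 3 and 1 in bins 1 to 5 and 5, 2, 4, 0 and 5 in bins 6 to 10. With 8, 12 and 25 regions in all, these counts are too small to read an order from. The highest 3000 took from 5.98% of the regions in bin 1 to 11.3% in bin 4.

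**Figure D4:**
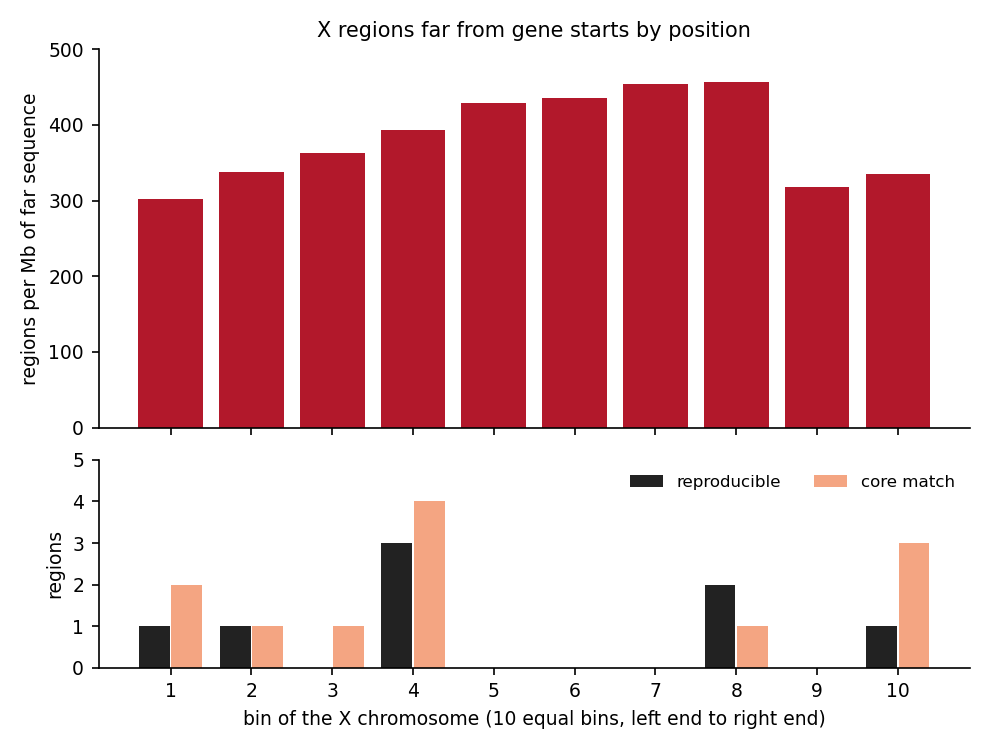
X-far regions per Mb of far sequence in each of 10 bins of X (upper bars) and the number of reproducible regions and of regions with a core match in it (lower bars). Density climbs to 457 per Mb in bin 8, while bins 5 to 7 and 9 hold no reproducible region and no core match.

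Core matches were found mostly at regions of high rank. GCGCAGGG lay within 200 bp of 12 X-far summits, or 0.413% (0.236 to 0.720%). The share was 0.368% (0.223 to 0.606%) in X candidates near starts, 0.103% (0.0524 to 0.204%) in far autosomal regions and 0.210% in all candidates. Over the 12 regions the median pooled rank was 353.5, against 14749 over the other 2895 X-far regions. For regions with the core it was 96 in X candidates near starts and 17070.5 in far autosomal regions. Of the 12, 8 were intergenic, 2 were in introns and 2, the overlapping pair, in the pks-1 exon. By distance 8 of the 13 separate matches were within 50 bp of a summit, with a median of 40 bp.

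Among reproducible X-far regions 5 of 8 held the core (62.5%, 30.6 to 86.3%), against 7 of the other 2899 (0.241%). Among X candidates near starts the same count was 8 of 49 reproducible peaks (16.3%, 8.51 to 29.0%). Among far autosomal regions it was 0 of 8, which allows a share of up to 32.4% by the Wilson interval. Over all 218 reproducible peaks it was 16 (7.34%, 4.57 to 11.6%), which includes some autosomal peaks near gene starts. The 245 X-far regions in the highest 3000 included 9 with the core (3.67%), and the 2662 below them included 3 (0.113%).

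The replicates gave the same picture when each list was ranked on its own. In replicate 1 the core was held by 5 of 6 X-far regions in the highest 100 and 6 of 9 in the highest 218. In replicate 2 it was held by 4 of 5 and by 5 of 9. X candidates near starts had 7 of 22 in the highest 100 of replicate 1 and 7 of 21 in that of replicate 2. Far autosomal regions in the highest 218 had 0 of 9 in replicate 1 and 0 of 12 in replicate 2. The lists share the control alignment, so they are not independent in that respect.

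**Figure D5:**
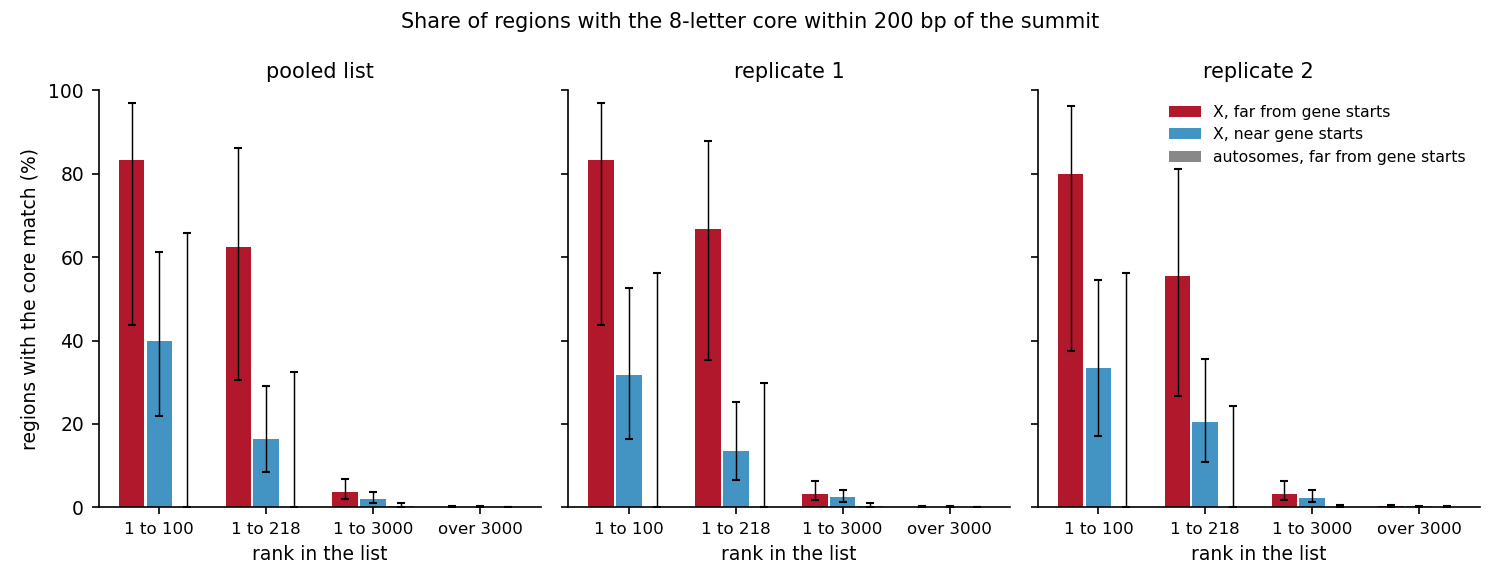
Percent of regions with GCGCAGGG within 200 bp of the summit by rank class in the pooled list, replicate 1 and replicate 2, for X-far regions, X candidates near gene starts and far autosomal regions. Bars are shares, and lines are 95% Wilson intervals that cover counting error only. X-far bars reach 83.3, 83.3 and 80.0% in ranks 1 to 100 and fall under 1% beyond rank 3000, and no far autosomal region of rank 1 to 218 holds the core in any list.

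Seen from the sequence, most core matches were not at a strong region. X has 81 core matches, of which 38 are far from gene starts, and the autosomes have 233, of which 71 are far. Of the 38 far matches on X, 13 (34.2%, 21.2 to 50.1%) lay within 200 bp of a candidate summit and 7 (18.4%, 9.22 to 33.4%) within 200 bp of a reproducible one. For scale, 14.7% of far X bases lie within 200 bp of a candidate summit and 0.0424% within 200 bp of a reproducible one. Of the 71 far autosomal matches, 6 lay at a candidate summit (8.45%, 3.93 to 17.2%) and 0 at a reproducible one (up to 5.13%). Of all 233 autosomal matches, 2 lay at a reproducible summit.

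The longer forms gave larger shares on X. On X these are the same matches as those counted above by the letter before or after the core. The shares therefore restate that count and are not separate support. Of 14 far X matches to CGCGCAGGG, 6 were at a candidate summit and 5 at a reproducible one (35.7%, 16.3 to 61.2%). Of 14 far X matches to GCGCAGGGA, 10 were at a candidate summit (71.4%, 45.4 to 88.3%) and 5 at a reproducible one. In far autosomal sequence the same 2 forms occurred 23 and 22 times, with 3 and 2 at a candidate summit and 0 at a reproducible one. Allowing 1 mismatch, 166 X-far regions (5.71%) matched, close to the 5.57% of all candidates. All 6 of the X-far regions in the highest 100 were among them. Of these, 5 hold the exact core and match by definition, so the K02D3.1 region alone was added.

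Of the 12 regions with a core match, 3 ranked beyond 3000. By the protein-coding gene with the nearest start, these were the regions of nhr-173 (rank 3431), col-185 (4301) and dve-1 (26032), while those of B0302.2 and R11.3 ranked 519 and 1813. A tRNA gene start, 2526 bp away, was nearer to the rank 4301 region than that of col-185, at 3470 bp. These 5 regions were named for their core match after their values were seen. The col-185 region is the counterpart to the leading ones in its letters, with the core 5 bp from the summit, C before it and A after it, as in the F22H10.2 and Y41G9A.17 matches. It is shown for that contrast, beside the dve-1 region, which ranked lowest, with the core in capitals.
col-185 side, chrX:13514547-13514576, plus strand: atacctttatcGCGCAGGGatattgaaatc
dve-1 side, chrX:439181-439210, plus strand: ccacaatgtcgGCGCAGGGactcacaaacc
The col-185 region had a signal value of 33.3 in replicate 1, at rank 2003, and no region in replicate 2. The dve-1 region had 18.7 in replicate 1 and 23.3 in replicate 2, with the core 174 bp from its summit.

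GC content was higher in the leading regions. Mean GC content over 101 bp around the summit was 45.5 ± 4.34% over the 6 X-far regions in the highest 100 and 42.6 ± 7.85% over the 8 reproducible ones, against 34.2 ± 8.46% over all 2907 (SD over regions). In the 12 regions with the core it was 42.9 ± 7.65%. The core itself is rich in G and C, and the part of GC content in these ranks was not tested. Any 31-mer found more than once in the genome occurred at 2.41% of X-far regions, against 4.88% of X candidates near starts and 5.51% of far autosomal regions. Of the 245 X-far regions in the highest 3000, 0 held GTTCGANTC within 200 bp of the summit. These tRNA promoter letters were at 25 X-far summits in all (0.860%), against 2.75% near starts on X and 0.737% in far autosomal regions. The repeat GAGAGAGA was present at 2.86% of X-far regions, against 2.67% and 4.36%.

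The X-far regions inside genes were spread over many hosts. The bodies of 705 of 2731 X-linked protein-coding genes held 1661 X-far summits, and 350 of those genes held 1 each. The most were in nhr-27, a nuclear hormone receptor gene of 103 kb, with 30, of which 23 were intronic. Then came gap-2, which encodes a Ras GTPase-activating protein, with 24, mbl-1, a muscleblind splicing factor gene, with 17, plc-1, a phospholipase C gene, with 17, and F54G2.1 with 15. None of the regions in these 5 genes was a reproducible peak or in the highest 3000 of both replicates. Over all X-far regions these shares were only 0.275% and 0.860%, so the absence is not a result about these genes. The best pooled ranks were 575 in nhr-27, 1767 in gap-2, 2340 in mbl-1, 3643 in plc-1 and 2889 in F54G2.1. Per kb of their far sequence these genes held from 0.447 to 0.589 X-far regions.

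The dosage compensation and sex determination genes on X had no strong X-far region. Of a list of 14 such genes 6 are on X, and 2 of these held X-far summits in their bodies. sdc-2, whose product directs the complex to X, held 1 at rank 8802, and fox-1, an RNA-binding X signal element, held 2 with the best at rank 12038. sdc-1, a zinc finger gene of the complex, the nuclear receptor gene sex-1, the homeodomain gene ceh-39 and xol-1, the switch gene for male fate, held none. Within 5000 bp of sex-1 there were 2 X-far regions. Among candidates at any distance from a start, the best within 5000 bp ranked 375 at fox-1, 518 at ceh-39, 1210 at sex-1, 2409 at sdc-2 and 3147 at sdc-1. Of the 6 genes on X, only xol-1 had reproducible peaks within 5000 bp, of which 1 held the core and ranked 22. That peak lies 4862 bp upstream of xol-1 and 306 bp from a tRNA gene start, so it is not one of the X-far regions.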

How the data were processed

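ChIP-seq of tagged CCCH-3 was deposited as 4 peak lists from 2 replicates of 1 group. Per the file headers and labels, the authors made each list against the same control alignment on ce11. For the aligner, the peak caller, the threshold of the rank agreement test and the kind of control, no source used here gives a name. The deposited signal value is the authors' score per region, on a scale that is not stated, and the deposited −log10 q-value is the caller's. Summits come from the authors' offset column. Read depth is unknown, so intervals cover the counting of regions only.

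Distances and settings were computed from the Ensembl release 115 annotation of WBcel235, with exon before intron, then noncoding gene or pseudogene, then intergenic. A replicate region matched a pooled one on at least 1 bp of overlap, nearest summit first. Motifs were searched on both strands in 401 bp around summits, and overlapping matches were kept. Shares carry 95% Wilson intervals. No p-value was computed, since 1 group allows no comparison over samples and regions are not replicates. Matching, distance and motif steps were tested on simulated data. Python 3.11.15, numpy 2.4.6, pandas 2.3.3, scipy 1.17.1 and matplotlib 3.10.9 were used. Named were the 25 X-far regions with the highest pooled signal, further reproducible ones, the 5 genes holding most regions, and a list of dosage compensation and sex determination genes. The members and lists were chosen with earlier results of these data known. Alternatives were other distances, other sets of starts, single replicate lists, stricter overlap, rank limits and motif windows.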

Additional observations from a re-analysis of the deposited data

How the results depend on the processing

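Of 72 alternative values, 58 stayed within the 95% interval of the reported value, and 14 moved outside it. For the number of regions, the limit was 1.5 times in place of the interval. Only Spearman's rho could change sign, and 0 of its values did. A wide interval is hard to leave, such as 30.6 to 86.3% for the core share among reproducible X-far regions. The number of X-far regions was 4504 at more than 1000 bp, 813 at more than 5000 bp, 1826 with starts of every biotype and 2329 with starts of every transcript. With starts of every transcript, the intron share was 27.7% and the share in the central 50% of X was 52.0%. The intron share was 45.4% beyond 5000 bp. Both replicates had a region at 31.8% when a reciprocal overlap of 50% was asked for. Rank limits of 1000 and 5000 gave 2.30% and 15.8% of X-far regions in the pooled list, and 0.378% and 2.55% in both replicates. The core match share was 1.11% among X-far regions in the highest 10000, and 5.71% with 1 mismatch allowed. Each of these alternatives changes which regions or matches are counted, and the cause was not tested otherwise.

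Single replicate lists gave the 6 X-far shares that they can give as ranges: 34.4 to 36.0% in introns, 53.3 to 53.8% in the central 50%, 8.54 to 8.74% in the highest 3000, 0.352 to 0.388% overlapping a reproducible peak, 0.388 to 0.529% with the core, and 55.6 to 66.7% with the core among X-far regions of the highest 218, over 2833 to 2837 regions. Shares over both replicates have no such value. The last share, added after seeing the data, ran from 50 to 75% over its alternatives. No paired analysis was possible because there is 1 group.

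The main limits are a single tagged strain and an unnamed control that all lists share. Reproducible X-far regions number 8, so their shares have wide intervals. Depth is unknown, so the absence of a region in a replicate list cannot be told from low depth.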
